A study of Mus musculus with 10 samples.

Results

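The 10 genes described here are the early growth response genes Egr1, Egr2, Egr3 and Egr4, the immediate early response genes Ier2, Ier3 and Ier5, and the nuclear receptor genes Nr4a1, Nr4a2 and Nr4a3. They were taken by symbol from the deposited count table, in which they are 10 of 56750 features. Of these, 9 passed the filter on low counts, as did 24743 features in all, and Egr4 did not. All of them are immediate-early genes, which cells transcribe within minutes of a growth factor, cytokine, calcium or stress signal without first making new protein. Serum response factor and its ETS-family partners, bound at CArG boxes, and CREB, bound at CRE sites, carry much of that signal to their promoters, and the ERK pathway is a main route to them. The Egr proteins are zinc finger transcription factors, the Nr4a proteins are orphan nuclear receptors that act without a known physiological ligand, and the Ier proteins are small regulators with no shared DNA-binding domain.

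RNA was measured in sarcomas of 2 mouse models, which the study set side by side as bulk tumors. The dFLEx tumors 170019, 170024 and 170025 came from mice labelled dFLEx CDS +/-, in which the fusion CIC::DUX4 is knocked in at Rosa26 under a CAG promoter and needs both Cre and FLP. In those mice tumors are started by electroporating plasmids for the recombinases into the hind limb muscle. The fusion turns CIC, a repressor of genes downstream of ERK, into an activator. The KP tumors 3800 and 3802 are of the KP model and carried p53fl/fl, so that loss of p53 is part of their genotype and not of the dFLEx genotype. How the KP tumors were started is not given in the labels. The labels give no treatment, age or time point, and a whole tumor was sampled in each case. The RNA of each tumor was divided for duplicate libraries. The table used here holds 6 libraries of the 3 dFLEx tumors and 3 libraries of the 2 KP tumors, and for 3802 only the first library was analysed here. The tumor was the replicate. Library totals ran from 20503474 to 46302223 counts. The CIC_DUX4 transgene feature was at 89.3, 192 and 409 CPM (counts scaled to the same total in each library) in 170019, 170024 and 170025, at 0 in 3800 and at 0.293 in 3802, so the labels of the groups were borne out in each tumor. With 3 tumors against 2, the exact two-sided permutation test cannot go below p = 0.2, the value it gave here.

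The promoters of Egr2 and Nr4a1 are shown because these were the tested members with the largest positive differences between the groups. They are the 200 bases before the start site of the canonical GENCODE M39 transcript, read from GRCm39 on the sense strand, at chr10:67373492-67373691 for Egr2 and chr15:101164460-101164659 for Nr4a1, both on the plus strand. Capitals mark every match that lies whole within these bases, on either strand, to a CArG box (CC, then 6 letters that are A or T, then GG), to a CRE core (TGACG) or to the CIC octamer (TGAATGAA, TGAATGGA, TCAATGAA or TCAATGGA). The capitals that run together in Nr4a1 are a CRE core and a CIC octamer that overlap.
Egr2: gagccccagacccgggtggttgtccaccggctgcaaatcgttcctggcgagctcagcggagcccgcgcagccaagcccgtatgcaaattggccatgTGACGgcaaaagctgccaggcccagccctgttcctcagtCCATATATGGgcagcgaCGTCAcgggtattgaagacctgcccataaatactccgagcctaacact
Nr4a1: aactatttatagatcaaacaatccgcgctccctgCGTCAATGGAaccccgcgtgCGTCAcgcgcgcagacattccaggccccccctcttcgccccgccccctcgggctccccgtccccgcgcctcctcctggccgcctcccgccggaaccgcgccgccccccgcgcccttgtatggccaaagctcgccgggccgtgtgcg

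Egr2 held a CArG box close to the start site, at position -65, with a CRE core at -48 and another at -104. A CArG box was found in 1.54% of the 21757 mouse promoters read from 250 bases before to 50 after the start site. A CRE core was found in 22.6% of them, and CIC octamers in 3.64%. Nr4a1 had CRE cores at -166, -146, -2 and 28, and its CIC octamer at -164 overlapped the first of them. It also had an EGR site (GCGNGGGCG, in 6.22% of promoters) at 8 and an ETS core (CCGGAA, in 16.9%) at -58. Ier2 had the full CRE (TGACGTCA, in 2.45% of promoters, which contains the core on both strands) at -43. Nr4a3 had CRE cores at -79, -61, -53 and 6, and Egr4 at -73 and -5. In the same window none of these motifs, nor the NBRE (AAAGGTCA, in 1.36%), was found in Ier3, Ier5 or Nr4a2. The promoters of the remaining members were not used here. A match is a match of letters and was not tested for binding.

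**Figure D1:**
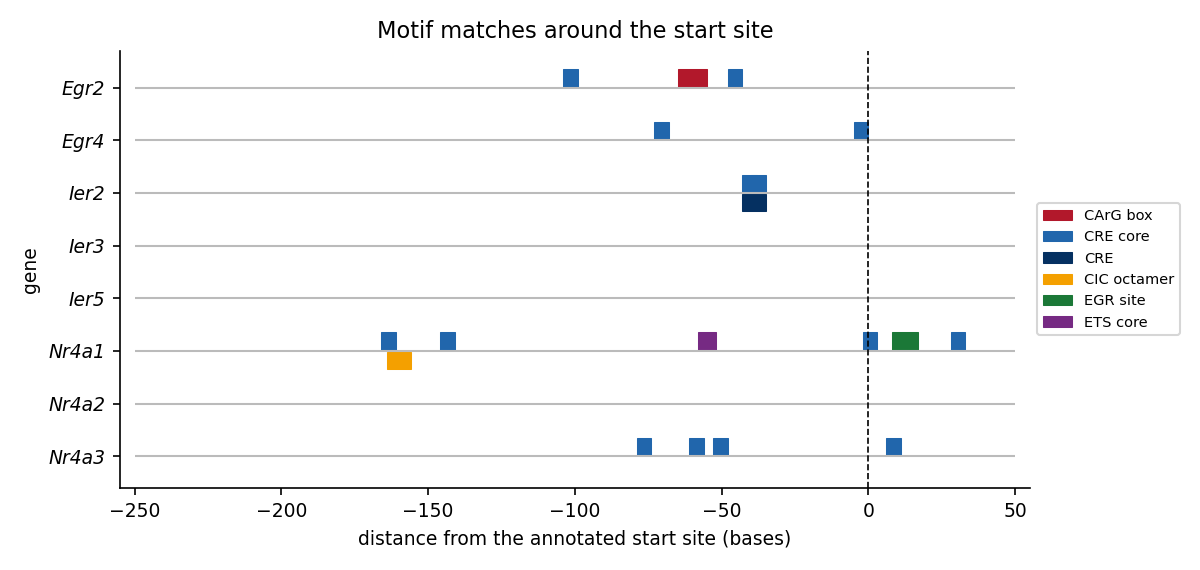
Motif matches on either strand from 250 bases before to 50 bases after the annotated start site (dashed line) of 8 genes, with the distance in bases on the x axis and colored boxes for the motifs. Egr2 has a CArG box at -65 with CRE cores at -104 and -48, and Ier3, Ier5 and Nr4a2 have no box.

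The difference between the groups was tested with edgeR on counts summed per tumor, with p-values adjusted over all 24743 tested genes. Changes are log2 fold changes of dFLEx against KP, each with its standard error (SE), and levels are CPM scaled by the trimmed mean of M values (TMM). At an adjusted p under 0.05, 45 genes were called (0.182%), 25 higher and 20 lower, and none of the 9 members tested was among them. At an unadjusted p under 0.05 the count was 2 of 9 members, Egr2 higher and Egr3 lower, where 10.6% of all tested genes passed. DESeq2 on the same sums called 1408 genes, 6.66% of the 21146 to which it gave an adjusted p, with Egr3 as the only member. Taking the 9 libraries as independent samples in edgeR called 3344 genes, 17.1% of the 19538 tested in that fit. It called 4 members, Egr2 and Nr4a1 higher and Egr3 and Nr4a2 lower. That fit counts the duplicates of a tumor as replicates. The median log2 fold change was 0.18 over the 9 members and -0.18 over all tested genes.

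Tumors differed among themselves more than most duplicates did. Over 36 pairs of duplicates of the 9 tested members, the higher library exceeded the lower by a median of 1.09-fold, and 31 pairs differed by less than 1.2-fold. The widest pair was Egr3 in 170019, with 4 and 20 counts, which was 5.66-fold. The 3 dFLEx tumors spanned between 1.25-fold for Ier5 and 5.87-fold for Egr3, and the 2 KP tumors differed 5.15-fold for Egr2. For Egr3, Ier3 and Ier5 the span of the dFLEx tumors was close to the duplicates of 170019. Those differed 1.25-fold for Ier3, beside a span of 1.36-fold, and 1.17-fold for Ier5. Every dFLEx tumor was above both KP tumors for Egr2 and for no other tested member, beside 13.7% of all tested genes. Every dFLEx tumor was below both KP tumors for Egr3 and Nr4a2, beside 11.7% of all tested genes. The same 3 members separated the groups when CPM was taken on library totals.

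**Figure D2:**
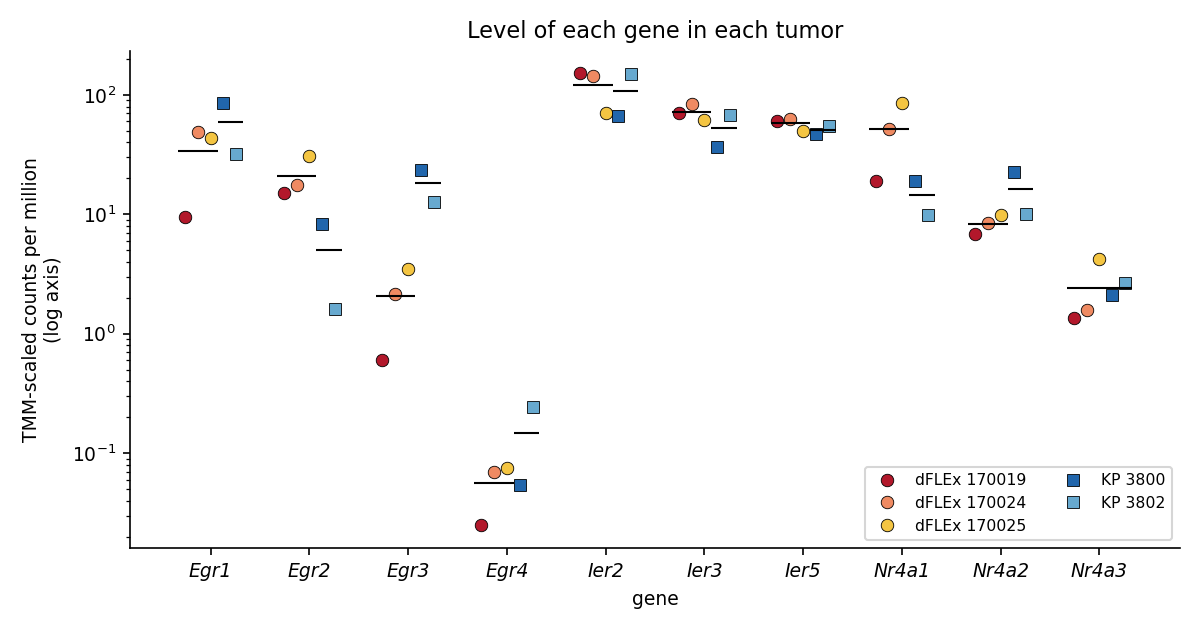
TMM-scaled CPM (log axis) of the 10 genes in the 3 dFLEx tumors (circles) and 2 KP tumors (squares), with the group mean as a line. The groups do not overlap for Egr2 (dFLEx higher), Egr3 and Nr4a2 (dFLEx lower), and the Ier genes lie between 36.7 and 152 CPM in every tumor.

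Set per kilobase of exon, which allows genes to be compared, the Ier genes were the most abundant members. Their mean level over the 5 tumors was 76.2 ± 28.7 CPM per kilobase (SD, n = 5) for Ier2, 56.8 ± 15.4 for Ier3 and 16.8 ± 2.01 for Ier5. Nr4a1 followed at 10.6 ± 9.03 and Egr1 at 9.84 ± 6.23. Egr2 was at 4.32 ± 3.23, Nr4a2 at 2.84 ± 1.54 and Egr3 at 1.94 ± 2.20 CPM per kilobase. Nr4a3, at 0.400 ± 0.194, and Egr4, at 0.0435 ± 0.0402, were lowest. Only 2 neighbours in this order kept it in all 5 tumors, Ier3 above Ier5 and Nr4a3 above Egr4. Each of the other neighbouring pairs changed places in at least 1 tumor.

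Among the Egr genes, the differences of Egr2 and Egr3 had opposite signs, and neither passed the test. Egr2 (ENSMUSG00000037868, chr10:67371305-67378018, plus strand) encodes the factor best known for hindbrain patterning and myelination. Its level was 14.95 CPM in 170019, 17.6 in 170024 and 30.9 in 170025, against 8.37 in 3800 and 1.63 in 3802. All dFLEx tumors were above both KP tumors, and 3802 was far below 3800. The log2 fold change was 2.07 (SE 0.86), with an unadjusted p of 0.0426 and an adjusted p of 0.444 in edgeR. It stayed above 0 with each tumor left out, at 1.35 without 3802 and 3.87 without 3800.

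Egr3 (ENSMUSG00000033730, chr14:70314652-70320063, plus strand), a factor of muscle spindle development and lymphocyte responses, was scarce in the dFLEx tumors. It stood at 0.597 CPM in 170019, 2.17 in 170024 and 3.50 in 170025, and at 23.7 in 3800 and 12.8 in 3802. The groups were apart, with the lowest KP tumor above the highest dFLEx tumor. The depth behind the lowest value was thin. Duplicates of 170019 held 4 counts, which is 0.162 CPM of the library total (Wilson 95% interval 0.0628 to 0.415), and 20 counts, which is 0.881 (0.570 to 1.36). On the log2 scale the difference was -3.12 (SE 0.82), with an unadjusted p of 0.00545 and an adjusted p of 0.202 in edgeR, the lowest adjusted p among the members. DESeq2 on the same sums gave -3.19 with an adjusted p of 0.00509. With each tumor left out in turn it ran from -3.72 to -2.44, and no adjusted p fell under 0.05.

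Egr1 (ENSMUSG00000038418, chr18:34992876-34998037, plus strand), the most widely induced Egr factor, varied within both groups. It was at 9.43 CPM in 170019, 49.2 in 170024 and 43.7 in 170025, and at 86.0 in 3800 and 32.3 in 3802. Tumor 3802 lay among the dFLEx tumors, 3800 above all of them and 170019 below all others. The log2 fold change was -0.79 (SE 0.81, adjusted p = 0.878 in edgeR), and it became 0.25 without 3800. Egr4 (ENSMUSG00000071341, chr6:85488103-85490571, minus strand), known mainly from neurons and germ cells, was close to the limit of detection, with 0 to 6 counts a library. In the libraries with no count, the limit set by 3 counts was 0.121, 0.0837 and 0.103 CPM, and no fold change is given.

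The balance among the Egr genes differed between the groups within each tumor, where no scaling between tumors enters. These ratios were chosen after their values were seen and are given with no test. Per exonic base, the Egr2 signal was 32.5, 10.5 and 11.4 times that of Egr3 in 170019, 170024 and 170025, and 0.459 and 0.165 times in 3800 and 3802. Egr2 therefore exceeded Egr3 in each dFLEx tumor and fell short of it in both KP tumors. The size of the ratio in 170019 is uncertain, as it rests on 24 counts of Egr3, with 4 and 20 in the duplicates. Against Egr1, Egr2 stood at 2.09, 0.472 and 0.933 in the dFLEx tumors and at 0.128 and 0.0664 in the KP tumors. As a share of the family's summed level per kilobase, Egr2 made up 66.2%, 31.1% and 46.2% in the dFLEx tumors and 9.11% and 4.47% in the KP tumors. Egr3 made up 2.04%, 2.95% and 4.04% in the dFLEx tumors and 19.9% and 27.2% in the KP tumors.

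The Nr4a receptors showed the same kind of contrast between members. Nr4a1 (ENSMUSG00000023034, chr15:101152150-101172676, plus strand), also called Nur77 and induced by growth factors and antigen receptors, was at 18.98 CPM in 170019, 51.8 in 170024 and 86.2 in 170025. In 3800 it was at 19.2 and in 3802 at 9.87. Tumor 170019 lay just under 3800, and the other dFLEx tumors were well above both KP tumors. Its log2 fold change was 1.85 (SE 0.80), with an unadjusted p of 0.0501 and an adjusted p of 0.473 in edgeR. It ran from 1.28 without 170025 to 2.58 without 3800.

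Nr4a2 (ENSMUSG00000026826, chr2:56996842-57014015, minus strand), the Nurr1 receptor of dopamine neurons, was at 6.84, 8.41 and 9.81 CPM in the dFLEx tumors 170019, 170024 and 170025. It was at 22.4 in 3800 and 10.1 in 3802. The groups were apart, but 3802 lay close to the highest dFLEx tumor, and only 3800 stood well clear. The log2 fold change was -0.96 (SE 0.61, adjusted p = 0.738 in edgeR), and it was -0.11 without 3800. Nr4a3 (ENSMUSG00000028341, chr4:48045153-48086447, plus strand), the NOR1 receptor, was low throughout, at 1.34, 1.58 and 4.26 CPM in the dFLEx tumors and 2.11 and 2.68 in the KP tumors. Its log2 fold change was 0.00 (SE 0.80, adjusted p = 1.00 in edgeR), and its sign changed under most alternatives.

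Within a tumor, Nr4a1 exceeded Nr4a2 per exonic base by 3.21, 7.13 and 10.2 times in 170019, 170024 and 170025, whereas the ratio was 0.990 in 3800 and 1.13 in 3802. Nr4a1 made up 73.9%, 86.3% and 88.7% of the family's summed level per kilobase in the dFLEx tumors and 48.2% and 48.9% in the KP tumors. Nr4a1 was also 2.57, 1.35 and 2.52 times Egr1 in the dFLEx tumors, and 0.285 and 0.391 times in the KP tumors. These ratios, too, were chosen after their values were seen and have no test.

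**Figure D3:**
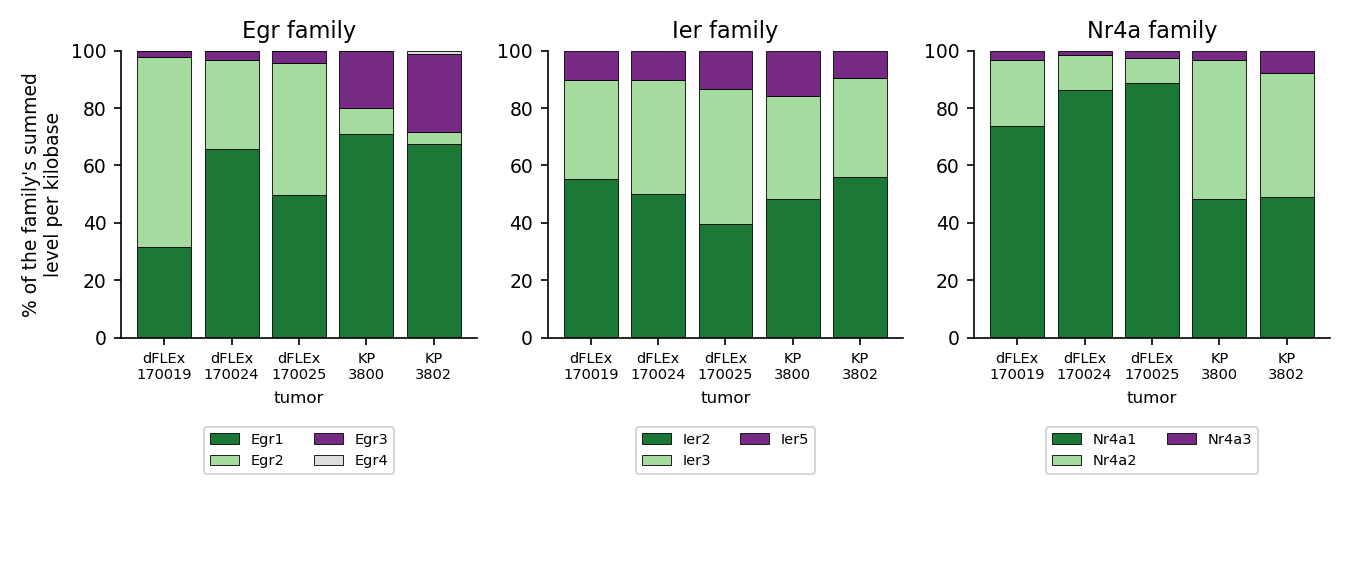
Share (%) of each member in the summed TMM-scaled CPM per kilobase of its family, by tumor, for the Egr, Ier and Nr4a genes. Egr3 takes 19.9% and 27.2% of the Egr total in the KP tumors and at most 4.04% in the dFLEx tumors, and Nr4a1 takes 73.9% or more of the Nr4a total in the dFLEx tumors and at most 48.9% in the KP tumors.

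The Ier genes did not separate the groups. Ier2 (ENSMUSG00000053560, chr8:85387960-85389483, minus strand), a nuclear protein induced by growth factors, was at 152, 143 and 69.9 CPM in 170019, 170024 and 170025. It was at 66.6 in 3800 and 149 in 3802, so that each group held a low and a high tumor. The tumors with high Ier2 were also those whose libraries had more features with a count. Those features numbered 29186 to 31768 in 170019 and 170024 and 36904 in 3802, against 24280 to 25572 in 170025 and 3800. Ier3 and Ier5, given below, were likewise higher in each of 170019, 170024 and 3802 than in 170025 and 3800. The part of this in the Ier genes was not tested. The log2 fold change of Ier2 was 0.18 (SE 0.63, adjusted p = 0.971 in edgeR). Ier3 (ENSMUSG00000003541, chr17:36132576-36133815, plus strand), also called IEX-1, a target of NF-kappaB with a part in cell survival, was at 70.8, 83.9 and 61.7 CPM in the dFLEx tumors. It was at 36.7 in 3800, the lowest, and at 68.1 in 3802, among the dFLEx tumors. Its log2 fold change was 0.46 (SE 0.57, adjusted p = 0.899 in edgeR).

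Ier5 (ENSMUSG00000056708, chr1:154972107-154975382, minus strand), an activator of heat shock factor HSF1, was the steadiest member. It was at 60.0, 62.8 and 50.3 CPM in the dFLEx tumors and at 46.9 and 54.5 in the KP tumors. On the log2 scale the difference was 0.19 (SE 0.53, adjusted p = 0.960 in edgeR). The signs for Ier2 and Ier5 turn with the scaling, being -0.17 and -0.12 when library totals replaced TMM. The SE of these genes allows a difference of either sign, so that a shift of about their SE was not detectable with these tumors.

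**Figure D4:**
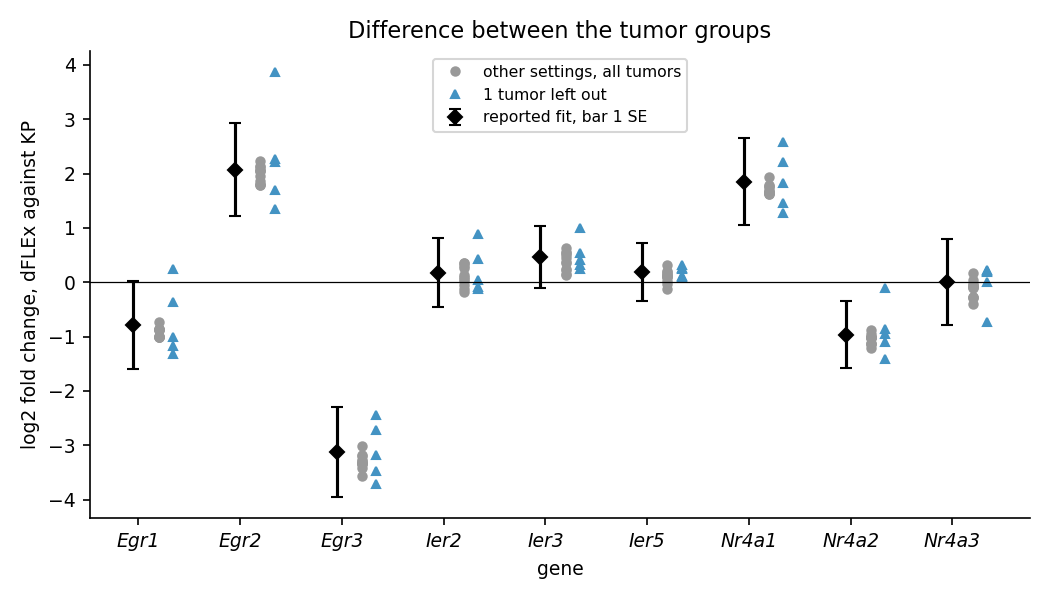
Log2 fold change of dFLEx against KP for the 9 tested genes, with the reported edgeR fit (diamond, bar 1 SE), the other settings on all tumors (grey circles) and fits with 1 tumor left out (triangles). Egr2 and Nr4a1 stay above 0 and Egr3 and Nr4a2 below 0 in every fit, while Egr1, Ier2, Ier5 and Nr4a3 fall on both sides of 0.

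The members were also set beside the transgene in the 3 dFLEx tumors, whose CIC_DUX4 level went upward in the order 170019, 170024, 170025. Of the 9 tested members, 5 (Egr2, Egr3, Nr4a1, Nr4a2 and Nr4a3) took the same order, and Ier2 took the reverse order. Over all tested genes, 29.0% took the order of the transgene and 32.0% the reverse. The order was compared after the values were seen, and 3 tumors allow no test of it. The summed counts of these tumors took the same order, at 47462244, 60557154 and 82138251, so transgene level and depth cannot be told apart here.

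The wider list of immediate-early genes also held differences of both signs. Of the 37 other immediate-early genes on the list, all were tested and none was called. At an unadjusted p under 0.05, 7 were higher and 1 was lower, 21.6% of the list beside 10.6% of all tested genes. DESeq2 on tumor sums called 2 higher and 1 lower, 8.11% of the list beside 6.66% of the 21146 genes with an adjusted p in DESeq2. Fold changes were above 0 for 22 and below 0 for 15 of them, with a median log2 fold change of 0.33. Every dFLEx tumor was above every KP tumor for 9 of the 37 (24.3%, beside 13.7% of all tested genes) and below for 4 (10.8%, beside 11.7%). The largest differences were those of Cebpd, a C/EBP factor of acute-phase responses (log2 fold change 2.88, SE 0.87), Ccn2, a matrix protein and YAP target (2.75, SE 0.84), and Dusp1, a phosphatase of MAP kinases (2.02, SE 0.77). The most negative were Fosl1, the AP-1 subunit FRA-1 (-2.54, with 1 SE reaching from -4.04 to -1.04), Dusp5, a nuclear ERK phosphatase (-2.39, SE 0.58), and Klf2, a zinc finger factor of endothelial cells (-1.22, SE 0.56). Their adjusted p in edgeR were between 0.166 and 0.693. The value for Fosl1 rests on 1 tumor: it was at 47.2 CPM in 3800 and at 0.528 in 3802, below the 0.920, 2.05 and 9.35 of the dFLEx tumors, and without 3800 its log2 fold change was 3.14.

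Fos, Jun and Atf3, which encode subunits of AP-1 and its relatives, did not go together. Fos was at 34.3, 72.6 and 106 CPM in 170019, 170024 and 170025 and at 32.6 and 10.0 in 3800 and 3802. As for Nr4a1, 170019 was close to 3800 and the other dFLEx tumors were above. Its log2 fold change was 1.74 (SE 0.79, adjusted p = 0.510 in edgeR). Jun was at 21.1, 95.2 and 90.2 CPM in the dFLEx tumors and 188 and 42.5 in the KP tumors, with 170019 lowest and 3800 highest, as for Egr1. Its difference was -0.74 (log2, with an SE of 0.85 and an adjusted p of 0.892 in edgeR). Atf3 had the same lowest and highest tumors, and its difference was -0.56 (log2, with an SE of 0.73 and an adjusted p of 0.906 in edgeR). Without 3800 the values turned to 0.86 for Jun and 0.41 for Atf3. Per exonic base, Fos stood at 6.94, 2.81 and 4.64 times Egr1 in the dFLEx tumors and at 0.723 and 0.590 times in the KP tumors, a ratio also chosen after its values were seen.

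**Figure D5:**
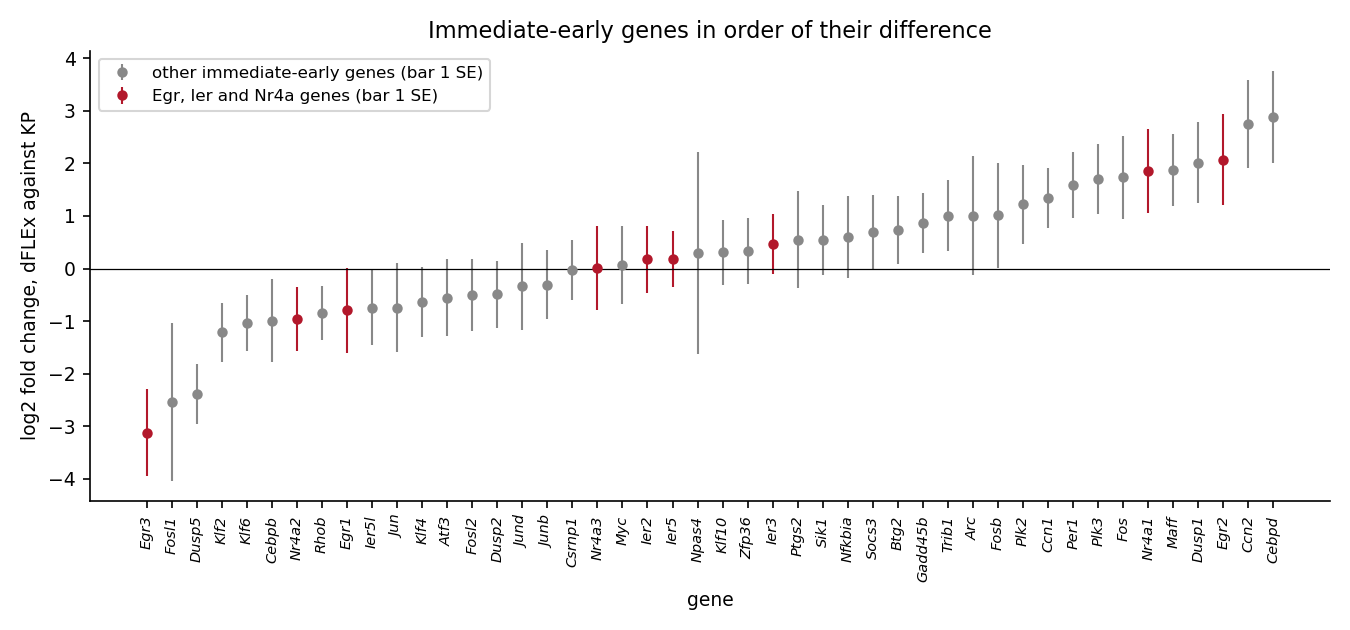
Log2 fold change of dFLEx against KP, with bars of 1 SE, for the 37 other immediate-early genes (grey) and the 9 tested members (red), in order of size. Egr3 lies at the low end at -3.12 and Egr2 and Nr4a1 near the high end at 2.07 and 1.85, with the Ier genes in between.

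The factors that act on these promoters and the partners of their products were read from the same fit. Of the 6 genes for serum response factor, its ETS-family partners and its coactivators, none was called and the median log2 fold change was -0.55. The values were -0.79 for Srf, -0.09 for Elk1, 0.27 for Elk3 and -0.53 for Elk4. The coactivators Mrtfa and Mrtfb were at -0.91 and -0.56. The 6 CREB factors and coactivators had a median of -0.25 and no call, from -0.61 for Crtc2 to 0.51 for Crtc3. Creb1 was at 0.08, Crem at -0.55, Atf1 at -0.29 and Crtc1 at -0.20. The corepressors that bind Egr proteins were Nab1, with a log2 fold change of 1.62 (SE 0.65, unadjusted p = 0.0390, adjusted p = 0.428 in edgeR), and Nab2, with -0.43 (SE 0.53). Nab1 was at 24.9, 22.5 and 42.4 CPM in the dFLEx tumors and at 12.4 and 7.11 in the KP tumors, and the groups were apart. Nab2 was at 53.1, 42.0 and 41.8 CPM in the dFLEx tumors and at 58.1 and 65.0 in the KP tumors, also apart, with the KP tumors higher. The retinoid X receptors, with which Nr4a1 and Nr4a2 can pair, had log2 fold changes of 0.07 for Rxra, 0.63 for Rxrb and 1.68 for Rxrg, with no call.

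Heat shock genes and markers of other cell types were read in the same tumors. Hspa1b encodes an inducible heat shock protein and has the near-identical copy Hspa1a. How reads that fit both genes were counted was not examined. Hspa1b was at 2.09, 7.40 and 7.05 CPM in the dFLEx tumors and 37.9 and 9.71 in the KP tumors. Tumor 170019 was lowest and 3800 highest, as for Egr1. Hspa1a had the same lowest and highest tumors, at 0.423 and 16.4 CPM. Over the 6 heat shock genes the median was -0.48 on the log2 scale, none was called, and 1 was lower at an unadjusted p under 0.05. Log2 fold changes were -1.91 for Hspa1a, -2.11 for Hspa1b, 1.07 for Hspb1, -0.11 for Dnajb1, -0.84 for Hsph1 and -0.08 for Hspa8. Summed macrophage markers were at 956 to 1108 CPM in the dFLEx tumors and at 2270 and 4690 in the KP tumors, with 6 of 8 lower and none called. Summed myocyte markers were at 9347 to 34070 CPM in the dFLEx tumors and at 1815 and 5131 in the KP tumors, with 9 of 9 above 0. Endothelial markers were above 0 for 8 of 8, pericyte markers for 4 of 5 and fibroblast markers for 6 of 6, with none called. Over all 24743 tested genes, 10803 were above 0. The groups were apart, with the dFLEx tumors higher, for only 2 endothelial, 2 pericyte and 2 fibroblast markers. T cell markers were below 0 for 6 of 6 and B cell markers for 4 of 4. Their sums were highest in 3802, at 48.6 and 34.7 CPM. Summed T cell markers were higher in both KP tumors than in any dFLEx tumor. Summed B cell markers were at 3.24 to 5.93 CPM in the dFLEx tumors and at 2.22 in 3800, the lowest of all. The higher B cell sum of the KP group therefore rests on 3802, which has a single library here. Neutrophil markers were above 0 for 4 of 6 and erythroid markers for 2 of 5. Summed neutrophil markers were at 7.02 to 53.7 CPM in the dFLEx tumors and at 7.07 and 39.3 in the KP tumors, and summed erythroid markers at 377 to 1118 and at 70.2 and 1792, so that both overlapped. The part of these signals in the members' levels was not tested, and in bulk tumors fewer cells of a type and less RNA per cell cannot be told apart.

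The genes whose levels went most like a member's over the 5 tumors were found among 10029 others with a mean of at least 10 CPM, by Pearson's r of log2(CPM + 1). For Egr1 they were Castor2 (r = 0.995), Wfs1 (0.993), Parvb (0.989), Elk4 (0.987) and Ccdc86 (0.987). For Ier2 they were Slfnlnc (0.999), Itm2a (0.998), mt-Rnr2 (0.998), Dpcd (0.997) and Vamp5 (0.996). For Nr4a1 they were Pcbp3 (0.999), Cdan1 (0.997), Tecpr1 (0.997), Col6a2 (0.997) and Tmem126b (0.996). With 5 tumors, 47 genes reached an r of at least 0.95 with Egr1, 226 with Ier2 and 223 with Nr4a1. No other member was among those listed. These values describe 5 tumors for which the study describes the same library protocol. Their libraries differ in depth, and the values carry no test.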

How the data were processed

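RNA was measured in tumors of both models as duplicate rRNA-depleted paired-end libraries. The authors trimmed reads with Trimmomatic (0.39), aligned them with STAR (2.7.10a) to mm39 with an added fusion contig, and deposited raw counts per gene from featureCounts (Subread 2.0.3), with no normalization. Per the file headers both mates had to align, strand was ignored and each mate was counted, so counting error is larger than totals imply. The intervals treat each count as independent, so they are too narrow for the counting error, and they cover no other error. No exonic base of the members was shared with another feature of the table.

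Counts were summed per tumor, filtered with filterByExpr, scaled by TMM and compared with edgeR (4.0.16; glmQLFit and glmQLFTest), adjusting p over every tested gene by Benjamini-Hochberg (threshold 0.05). SE is the size of the log2 fold change over the root of F. The study names DESeq2 without saying how it used duplicates, so DESeq2 (1.42.0) was an alternative, with limma (3.58.1), other scalings and filters, libraries in place of tumors, and each tumor left out. Exact permutation tests used SciPy (1.17.1). The edgeR step was tested on simulated data. The labels number the tumors without stating that each came from a separate animal, and p-values measure the spread between these tumors only.

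All members were named, with the genes of the lists of promoter factors, partners and heat shock proteins (each of 6 or fewer), and of the other immediate-early genes Fos, Jun, Atf3 and the 3 largest and 3 smallest fold changes. Cell type markers are given as counts and sums. Members and lists were chosen with earlier results of these data known, and no list was given a set test. Promoters were read from GRCm39 at GENCODE M39 start sites. Protein sequences were not analysed here, and 1 allele and 1 promoter are not reported here.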

Additional observations from a re-analysis of the deposited data

How the results depend on the processing

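Genes called by edgeR on tumor sums (45) moved with the unit of replication, with the method and with the filter. DESeq2 on tumor sums called 1408, limma-voom with duplicates correlated within tumors 543, the 9 libraries as independent samples 3344 in edgeR and 4838 in DESeq2, no filter 880 and a mean of at least 1 CPM 80. With each tumor left out in turn the count ran from 0 (without 170019 or without 170024) to 414 (without 3802). Members called, 0 in the reported fit, were 4 in edgeR and 4 in DESeq2 on the 9 libraries (Egr2, Egr3, Nr4a1 and Nr4a2 in both), 1 (Egr3) in DESeq2 on tumor sums and 1 (Egr3) with no filter. They were 0 in the other settings on all tumors apart from the block below, and 0 with each tumor left out. A duplicate number marks only a library, not a pairing of tumors: of 6 pairs of tumors, 2 had duplicate differences that correlated above 0.1. With that number as a replicate block, 2476 genes and 3 members (Egr2, Egr3 and Nr4a2) were called.

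Signs of Egr2, Egr3, Nr4a1, Nr4a2 and Ier3 were the same in all 16 alternatives. The log2 fold change of Egr1 turned to 0.25 without 3800, the highest of a range from -1.32 with 1 tumor left out. Library totals shifted the median of all genes by -0.30 and the upper quartile by -0.21 against TMM. They turned Ier2 to -0.17 and -0.12, Ier5 to -0.12 and -0.0281, and Nr4a3 to -0.28 and -0.40. Ier2 was -0.0473 under the 1 CPM minimum, and -0.13 to 0.89 with 1 tumor left out. Nr4a3 was -0.0907 and -0.0446 on the 9 libraries in DESeq2 and edgeR, -0.0304 with the block, -0.0785 in DESeq2 on tumor sums, -0.11 with DESeq2 size factors, -0.28 with the first library of each tumor, -0.27 under the 1 CPM minimum, and -0.73 to 0.22 with 1 tumor left out. The cause was not tested. Depth limits Egr4, and the counts of Egr3 in 170019.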
